A study of Mus musculus with 2 samples.

Results

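The collagen genes of the mouse were followed across the cells of lungs that carried few or many mammary carcinoma metastases. They were taken as every gene whose symbol has the form Col, a number, a and a number, which held for 44 of the 27999 genes listed in each library. Single-cell RNA sequencing was performed on dissociated lungs of female FVB/NJ mice that had been 10 weeks old when Met-1 mammary carcinoma cells were injected into the tail vein. Met-1 is a line derived from a mammary tumour driven by the polyomavirus middle T antigen. One mouse taken at week 1 gave the low-burden library and another taken at week 3 gave the high-burden library. Both had received the Met-1 cells, and no uninjected lung was compared here. With 1 mouse and 1 library in each of the 2 groups, burden, week, mouse and library cannot be told apart, no test between groups was possible, and every interval below covers counting error only.

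Collagens are secreted or membrane proteins in which 3 chains wind into a triple helix, and the genes encode single chains that must find their partners in the same cell. Fibrillar collagens give connective tissue its tensile strength and are chiefly made by fibroblasts. Collagen IV builds the network of basement membranes under epithelium and around vessels, and in the lung the membranes of alveolar epithelium and capillary endothelium are fused to a thin sheet through which gas is exchanged. Collagen VI forms beaded filaments next to basement membranes, and collagens XV and XVIII (multiplexins) link basement membranes to the surrounding matrix. By these roles, 11 members were fibrillar, 9 formed networks, 6 belonged to collagen VI, 9 were fibril-associated, 4 crossed the membrane, 2 were multiplexins and 3 fell outside these families.

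All 44 members had at least 1 unique molecular identifier (UMI, 1 counted transcript molecule) among the cells kept, and 14 had fewer than 50. The 14 included cartilage chains such as Col2a1 (13 UMIs) and Col9a1 (7 UMIs) and the hypertrophic cartilage chain Col10a1 (13 UMIs). The highest totals belonged to Col6a1 (15517 UMIs), Col3a1 (12518 UMIs) and Col1a2 (9665 UMIs). In GENCODE M21 on mm10 the members lay on 15 chromosomes, and none was overlapped by another annotated gene on the same strand. Genes on the opposite strand were not considered, and whether strand was used in counting is not given in the sources used here.

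Some collagen chains are encoded as neighbours, and the sequences of the start regions are shown for the pair that leads in vessels and for the chains that lead in metastatic cells. Col4a1 (ENSMUSG00000031502, chromosome 8, 11198423 to 11312826, minus strand) and Col4a2 (ENSMUSG00000031503, chromosome 8, 11312805 to 11449287, plus strand) encode the 2 chains of the common basement membrane collagen and have their first bases 21 bases apart on opposite strands, so that their 5′ ends overlap. Col6a1 (ENSMUSG00000001119, chromosome 10, 76708792 to 76726168) and Col6a2 (ENSMUSG00000020241, chromosome 10, 76595762 to 76623630) encode collagen VI chains and lie on the minus strand of the same chromosome. Col11a1 (ENSMUSG00000027966, chromosome 3, 114030540 to 114220718, plus strand) encodes a fibrillar chain best known from cartilage. The 100 bases before each RefSeq start, from the RefSeq promoter table on GRCm38.p6, the assembly of mm10, are written 5′ to 3′ on the strand of the gene. Capitals mark matches on either strand to the TATA box (TATAAA), the CAAT box (CCAAT), the GC box (GGGCGG) and the AP-1 motif (TGANTCA), and no match overlapped another in the windows shown.
Col4a1, chr8:11312827-11312926, minus strand: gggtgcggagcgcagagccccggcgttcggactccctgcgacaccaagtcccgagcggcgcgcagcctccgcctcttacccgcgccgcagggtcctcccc
Col4a2, chr8:11312705-11312804, plus strand: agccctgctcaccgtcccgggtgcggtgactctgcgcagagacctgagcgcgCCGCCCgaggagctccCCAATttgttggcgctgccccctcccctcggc
Col6a1, chr10:76726045-76726144, minus strand: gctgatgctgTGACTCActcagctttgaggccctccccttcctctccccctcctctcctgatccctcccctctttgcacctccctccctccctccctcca
Col6a2, chr10:76623405-76623504, minus strand: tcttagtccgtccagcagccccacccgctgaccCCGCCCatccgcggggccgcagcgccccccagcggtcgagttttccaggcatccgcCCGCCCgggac
Col11a1, chr3:114030440-114030539, plus strand: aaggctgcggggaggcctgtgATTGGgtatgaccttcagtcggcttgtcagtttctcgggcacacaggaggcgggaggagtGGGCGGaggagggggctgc
Of 35 members with a promoter entry, 18 held GGGCGG in this window, a share of 51.4% against 24.7% of all 32851 promoter windows of this length. CCAAT was found in 4 members (18.9% of all windows), TATAAA in 2 (5.56%) and TGANTCA in 1, Col6a1 (2.73%). These matches are a description of the letters, and binding of a factor was not measured.

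The low-burden library held 2668 cell barcodes with 14041471 UMIs and the high-burden library 3121 with 52723173, and 11 barcodes occurred in both. After filters on genes and mitochondrial share, 2473 and 3033 cells remained, with medians of 4073 and 13998 UMIs. Cells were assigned to classes by lists of markers that hold no collagen gene, and 10.9% of low-burden and 8.34% of high-burden cells reached no class. The low- and high-burden libraries held 475 and 59 fibroblasts, 78 and 17 smooth muscle cells or pericytes, 586 and 170 endothelial cells, and 214 and 90 epithelial cells. Metastatic cells numbered 1446 in the high-burden library and 0 in the low-burden library, and carried 34.6 CPM (UMIs of the gene scaled to 1e+06 UMIs of the class) of Xist, against 434 to 951 CPM in the 8 other groups of cells of both libraries. In each of these 5 classes, no marker of another class stood among the 10 leading genes. Lymphocytes, which should lack most collagens, are given as the background level, and their summed collagen level was 154 CPM in the low-burden and 151 CPM in the high-burden library.

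Fibroblasts carried the highest summed collagen level at low burden, and at high burden smooth muscle cells or pericytes stood at the same level as fibroblasts. The 44 members together made 8066 CPM (95% Poisson interval 7949 to 8185) of low-burden and 7611 CPM (7352 to 7876) of high-burden fibroblasts. In smooth muscle cells or pericytes the low-burden sum was 2741 CPM (2583 to 2906) and the high-burden sum 7571 CPM (7229 to 7924). Endothelial cells had 1181 CPM (1146 to 1217) and 2223 CPM (2158 to 2291), and epithelial cells 470 CPM (439 to 504) and 344 CPM (311 to 381). Metastatic cells stood at 942 CPM (931 to 952), above the lymphocytes of the same library and below its endothelial cells. The low-burden library drew 64.4% of its 28014 collagen UMIs from fibroblasts and 15.2% from endothelial cells. The high-burden library drew 59.8% of its 53687 collagen UMIs from metastatic cells, 11.0% from cells that reached no class, 8.05% from endothelial cells, 6.79% from mesothelial cells and 6.08% from fibroblasts. These shares follow the number and the depth of the cells of each class, since metastatic cells had a median of 21841 UMIs and high-burden fibroblasts 5927.

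**Figure D1:**
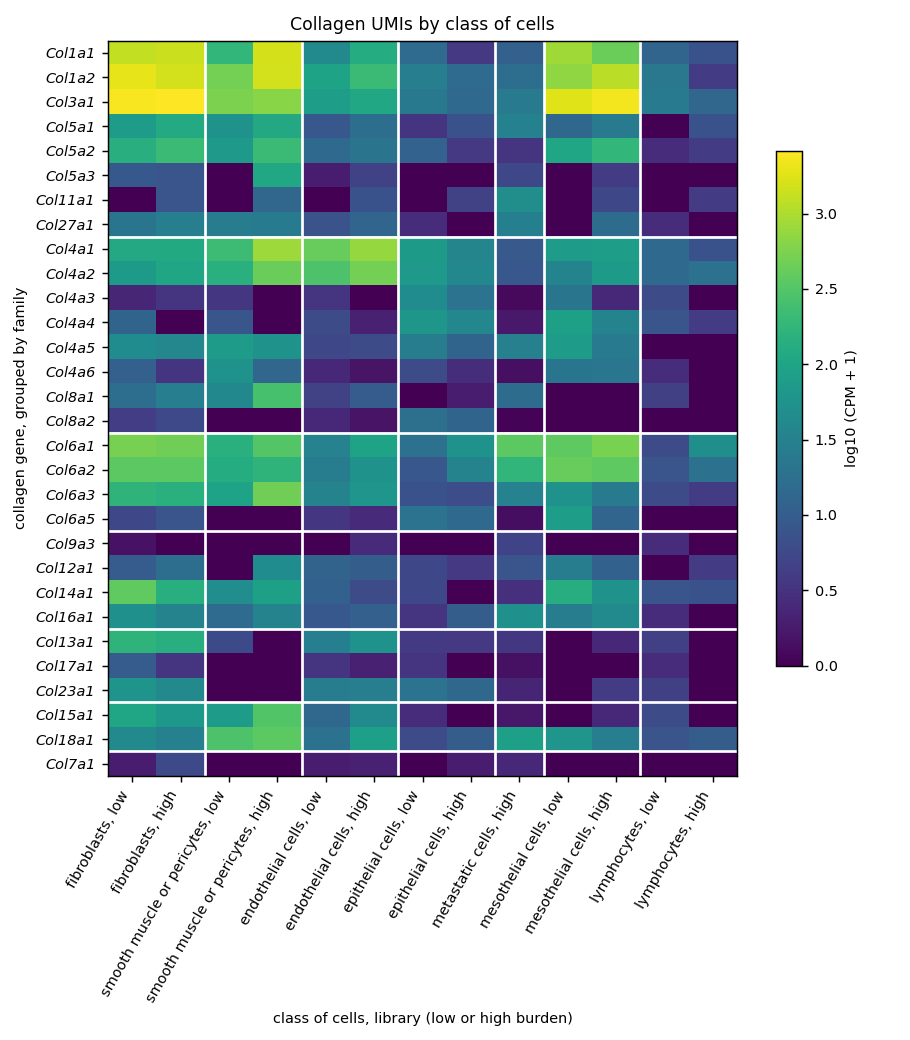
Level of each of the 30 collagen genes with at least 50 UMIs over the 7 classes shown, as log10 of CPM plus 1 (colour), in each class of cells (columns) of the low-burden and high-burden library, with rows grouped by collagen family. Col3a1 is brightest in fibroblasts and mesothelial cells, Col4a1 and Col4a2 in endothelial cells and, at high burden, in smooth muscle cells or pericytes, and Col6a1 and Col6a2 lead in metastatic cells (353 and 175 CPM).

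The families took different shares in the classes. Fibrillar chains made 73.4% of the collagen UMIs of low-burden fibroblasts and 77.1% of those of high-burden fibroblasts. In endothelial cells, network-forming chains made 61.0% at low and 57.0% at high burden, and in epithelial cells 62.9% and 45.4%. In metastatic cells collagen VI made 59.6% and fibrillar chains 17.5%. UMIs were not corrected for transcript length, so these shares compare 1 family between classes and not families with each other.

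Each member with at least 50 UMIs over the 5 classes of a library was assigned to the class where its level was highest. At low burden 13 of 24 members were highest in fibroblasts, 5 in smooth muscle cells or pericytes, 3 in endothelial and 3 in epithelial cells, and for 20 of the 24 the interval of the ratio over the next class lay above 0. At high burden 11 of 25 were highest in smooth muscle cells or pericytes, 8 in fibroblasts, 4 in metastatic cells, 1 in endothelial and 1 in epithelial cells, and the first and second class were separated for 11 of the 25. Col1a1, the main chain of collagen I, was highest in fibroblasts at low burden (1284 CPM against 182 CPM in smooth muscle cells or pericytes), while at high burden smooth muscle cells or pericytes stood at 1555 CPM and fibroblasts at 1387 CPM, a log2 ratio of 0.17 (−0.02 to 0.35). Among the 5 classes Col4a4, a chain of the specialised basement membrane of alveoli and glomeruli, was highest in epithelial cells in both libraries (63.4 and 37.1 CPM). Mesothelial cells were not ranked, and some members stood higher there. Low-burden mesothelial cells had 87.0 CPM of Col4a4 (13 UMIs, 46.3 to 149) and 80.3 CPM of Col6a5 (12 UMIs). High-burden ones had 529 CPM of Col6a1, against 469 CPM in fibroblasts.

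Fibroblasts of both libraries had similar levels of most collagens, and 1 member was past 2-fold, which is not more than the share over all genes. For the sum, the log2 ratio of the high-burden over the low-burden library was −0.08 (−0.14 to −0.03), and it was −0.31 with each cell thinned to 3000 UMIs and −0.70 under a stricter gate. Of 18 members past the filter (50 or more UMIs over both libraries, and a UMI in 10% or more of the cells of 1 library), 0 were at least 2-fold higher and 1 at least 2-fold lower at high burden, where 2.7% of all genes past the filter were higher and 7.85% were lower. The median log2 ratio of the 18 was −0.15, beside −0.10 over 5820 genes.

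The member past 2-fold was Col14a1 (ENSMUSG00000022371, chromosome 15, 55307750 to 55520803), a fibril-associated collagen that binds the surface of collagen I fibrils. Its level was 379 CPM in low-burden and 138 CPM in high-burden fibroblasts, a log2 ratio of −1.46 (−1.87 to −1.08). A Col14a1 UMI was seen in 50.5% of low-burden and 32.2% of high-burden fibroblasts, and after thinning in 47.1% and 22.0%. Of the other high and low ratios, Col5a1 (0.72, 0.24 to 1.18) and Col5a2 (0.56, 0.21 to 0.90), chains of the collagen V that starts collagen I fibrils, were highest with Col4a2 (0.56, 0.05 to 1.05), and Col27a1 had 0.44 (−0.61 to 1.38). The lowest after Col14a1 were Col15a1 (−0.67, −1.29 to −0.10), Col16a1 (−0.65, −1.57 to 0.15), Col23a1 (−0.54, −1.36 to 0.19) and Col18a1 (−0.47, −1.43 to 0.37).

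The chains of the highest level had smaller ratios. Col3a1, the chain of the thin reticular fibrils of lung, had 2444 and 2606 CPM (log2 ratio 0.09, −0.00 to 0.19), and Col1a1 had 1284 and 1387 CPM (0.11, −0.02 to 0.24). Col1a2, its partner in collagen I, had 1948 and 1499 CPM (−0.38, −0.50 to −0.26). Col6a1 had 514 and 469 CPM (−0.13, −0.36 to 0.08) and Col6a2 364 and 357 CPM (−0.03, −0.29 to 0.22). The share of Col1a1 among the UMIs of both collagen I chains was 39.7% (38.6 to 40.9) at low and 48.1% (45.2 to 50.9) at high burden. A single cell held 14.6% of the collagen UMIs of the high-burden fibroblasts, and without the top cell of each library the sum had a log2 ratio of −0.23.

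Within the fibroblasts, Col13a1 and Col14a1 separated the subclasses. Col13a1, a transmembrane collagen of cell-matrix junctions, had 414 CPM in the 188 alveolar fibroblasts of the low-burden library and 6.68 CPM in the 242 adventitial ones. Col14a1 had 661 CPM in adventitial and 9.88 CPM in alveolar fibroblasts of that library. At high burden 31 alveolar and 18 adventitial fibroblasts remained, so that the adventitial share of the class was 50.9% at low and 30.5% at high burden, and the adventitial class was then under the minimum of 20 cells set for subclasses.

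The subclasses differed in how the libraries compared. In alveolar fibroblasts the collagen sum was 4272 and 3301 CPM (log2 ratio −0.37, −0.49 to −0.26), and Col13a1 was 414 and 236 CPM (−0.81, −1.27 to −0.38). In the 18 adventitial fibroblasts of the high-burden library the sum was higher, 15726 CPM against 11050 CPM (0.51, 0.44 to 0.57), with Col5a1 at 309 against 114 CPM (1.45, 0.92 to 1.95), Col1a1 at 3318 against 1889 CPM (0.81, 0.67 to 0.96) and Col3a1 at 5793 against 3567 CPM (0.70, 0.59 to 0.81). Col14a1 remained lower in these cells, but by less than 2-fold, with 344 against 661 CPM (−0.94, −1.39 to −0.52). The part of the lower adventitial share in the Col14a1 ratio of the whole class was not tested. The difference between the subclasses was not tested.

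**Figure D2:**
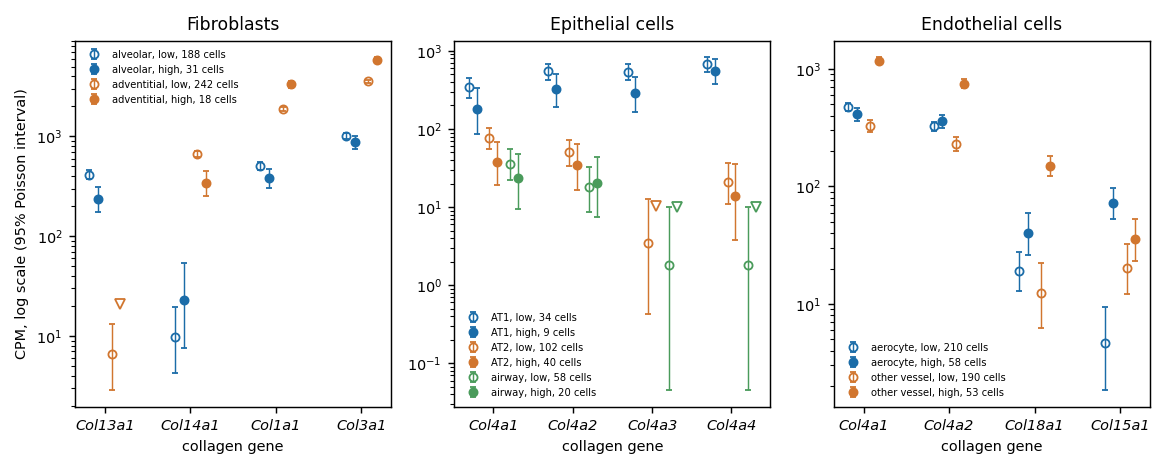
Levels of collagen genes in subclasses of fibroblasts, epithelial cells and endothelial cells, as CPM on a log axis with 95% Poisson intervals, for the low-burden (open points) and high-burden library (filled points), where an open triangle stands for no UMI at the limit of 3 counts. Col13a1 marks alveolar and Col14a1 adventitial fibroblasts, Col4a3 and Col4a4 stand high in AT1 cells, and Col4a1 is 327 and 1174 CPM in the other blood vessel cells while aerocytes have 478 and 412 CPM.

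Smooth muscle cells or pericytes of the high-burden library had higher levels of most chains measured, in 17 cells. Of 13 members past the filter, 10 were at least 2-fold higher and 0 at least 2-fold lower, where 12.4% of all genes past the filter were higher and 17.5% were lower. The median log2 ratio of the 13 was 1.60, beside 0.02 over 1999 genes, and the sum had a log2 ratio of 1.47 (1.36 to 1.57). Scaled by the median of ratios over genes, each log2 ratio is lower by 0.33 in this class and by 0.10 in fibroblasts.

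Col1a1 had the highest ratio, with 182 CPM in low-burden and 1555 CPM in high-burden cells, 8.53-fold (6.64 to 11.1). A Col1a1 UMI was seen in 48.7% of the 78 low-burden and 76.5% of the 17 high-burden cells, and in 41.4% and 70.6% after thinning. Its partner Col1a2 went from 503 to 1514 CPM (log2 ratio 1.59, 1.34 to 1.84), so that Col1a1 made 26.6% (21.5 to 32.2) of the collagen I UMIs at low and 50.7% (47.0 to 54.3) at high burden. The next ratios were those of Col8a1, a short-chain network collagen of vessel walls (38.9 and 263 CPM, 2.75, 1.95 to 3.64), Col6a3, a further chain of collagen VI (94.9 and 476 CPM, 2.33, 1.79 to 2.89), Col15a1 (73.0 and 308 CPM, 2.08, 1.45 to 2.74) and Col4a1 (219 and 812 CPM, 1.89, 1.53 to 2.27). The lowest were Col3a1 (557 and 648 CPM, 0.22, −0.08 to 0.52), Col18a1 (289 and 361 CPM, 0.32, −0.10 to 0.73) and Col6a2 (129 and 164 CPM, 0.35, −0.28 to 0.97), with Col5a1 (1.10, 0.24 to 1.98) and Col6a1 (1.11, 0.61 to 1.63) next.

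Other markers moved with these values. The summed level of the 14 markers of smooth muscle cells and pericytes was 41120 CPM in the low-burden and 14920 CPM in the high-burden cells, and that of the 12 fibroblast markers was 3113 and 759 CPM. Leaving aside Gsn, Mfap4 and Inmt, which were common in lymphocytes, 3 or more of the 9 other fibroblast markers were seen in 17 of 78 and 4 of 17 cells. Those 4 cells held 945 of the 1845 collagen UMIs of the high-burden class. In cells with fewer such markers the sum had a log2 ratio of 1.49 (1.36 to 1.63). The 10 metastatic markers were higher along with the collagens, at 12.2 and 759 CPM, and 3 or more of them were seen in 0 of 78 and 10 of 17 cells, against 30.9 and 321 CPM in lymphocytes. Their part in the result was not tested. A single cell held 30.0% of the collagen UMIs of the 17 cells. Smooth muscle cells made 87.2% of the class at low burden and 52.9% (9 cells) at high burden, and in these cells alone Col1a1 had a log2 ratio of 3.20 (2.78 to 3.64), Col4a1 1.55 (0.96 to 2.13) and Col6a1 0.47 (−0.47 to 1.32). Thinned to 3000 UMIs per cell, 4 members in place of 10 passed the filter with a 2-fold higher level. Col5a2, Col6a3, Col15a1, Col1a2, Col4a1, Col1a1 and Col8a1 stayed at least 2-fold higher under each setting that gave them a value.

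**Figure D3:**
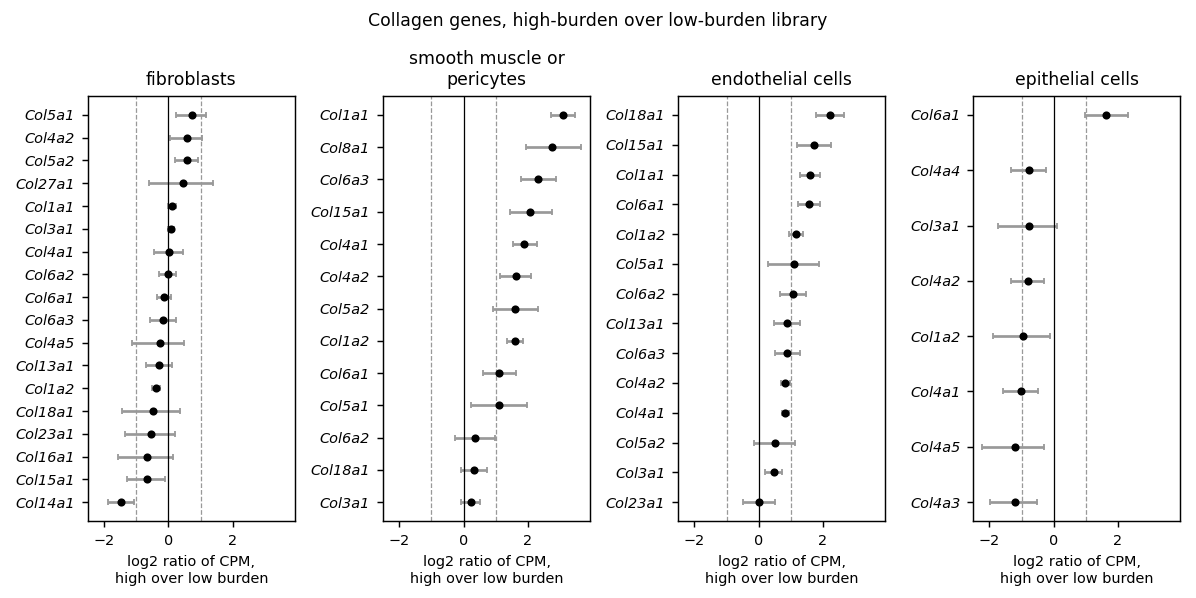
Log2 ratio of CPM in the high-burden over the low-burden library for each collagen gene past the filter, by class of cells, with exact conditional binomial 95% intervals and dashed lines at 2-fold. All 13 points of smooth muscle cells or pericytes lie above 0, with 3 intervals that cross it, those of fibroblasts lie around 0 except Col14a1 (−1.46), and 7 of 8 points of epithelial cells lie below 0.

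Endothelial cells of the high-burden library had higher levels of basement membrane chains, and a higher metastatic marker level. The 10 metastatic markers summed to 332 and 663 CPM, and 3 or more of them were seen in 2 of 586 and 93 of 170 cells. They were higher at high burden in lymphocytes too, at 30.9 and 321 CPM, with 3 or more in 0 of 144 and 14 of 40 cells. Metastatic cells themselves had 8.13 CPM of Col4a1 and 7.42 CPM of Col4a2, and 84.0 CPM of Col18a1 and 353 CPM of Col6a1, and the part of these markers in the endothelial values was not tested. Col4a1 went from 416 to 742 CPM (log2 ratio 0.83, 0.73 to 0.94) and Col4a2 from 286 to 510 CPM (0.83, 0.71 to 0.96). Both chains kept the same proportion, Col4a1 making 59.3% of their UMIs in each library (57.4 to 61.2 at low and 57.3 to 61.2 at high burden). Col18a1, whose cleaved end is the vessel inhibitor endostatin, had the highest ratio, from 18.3 to 84.8 CPM (2.21, 1.79 to 2.65).

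Over the class, 7 of 14 members past the filter were at least 2-fold higher and 0 at least 2-fold lower, where 3.38% of all genes past the filter were higher and 2.09% were lower. The median log2 ratio of the 14 was 0.97, beside −0.06 over 8319 genes. The 7 were Col18a1, Col15a1 (1.71, 1.18 to 2.26), Col1a1 (1.60, 1.30 to 1.90), Col6a1 (1.57, 1.22 to 1.92), Col1a2 (1.16, 0.95 to 1.37), Col5a1 (1.09, 0.30 to 1.89) and Col6a2 (1.06, 0.65 to 1.47). Of the 7, Col18a1 alone stayed past 2-fold under each setting that gave it a value. With the lymphocyte level subtracted Col6a1 had 0.74, Col5a1 0.38 and Col6a2 0.90, and under a stricter gate Col1a2 had −0.12, Col15a1 0.48 and Col1a1 0.51. Col1a2 stood at 94.3 and 211 CPM. The lowest ratios were Col23a1 (0.02, −0.49 to 0.51), Col3a1 (0.47, 0.21 to 0.73), Col5a2 (0.49, −0.15 to 1.13) and both collagen IV chains.

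The fibrillar chains in this class stood higher in cells with fibroblast markers, and such cells were a larger share of the high-burden class. The summed level of the 12 fibroblast markers was 3785 and 3934 CPM. Leaving aside Gsn, Mfap4 and Inmt, which had a UMI in 34.7% to 91.7% of lymphocytes, 3 or more of the 9 other fibroblast markers were seen in 99 of 586 low-burden endothelial cells (16.9%) and 64 of 170 high-burden ones (37.6%), against 2 of 144 and 0 of 40 lymphocytes. Endothelial cells with 3 or more such markers had medians of 13093 and 11540 UMIs, and those with fewer had 3638 and 7928. Cells were not thinned for this count, and the whole class had medians of 4133.5 and 8973.5 UMIs. The part of depth in the larger share was not tested. Col1a1 stood at 90.1 and 240 CPM in cells with 3 or more markers (log2 ratio 1.41, 1.07 to 1.76) and at 14.8 and 50.3 CPM in cells with fewer (1.76, 1.13 to 2.42). Col3a1 stood at 156 and 229 CPM in cells with 3 or more and at 35.3 and 27.7 CPM in cells with fewer. A single cell held 48.4% of the Col1a1, 46.8% of the Col1a2 and 50.6% of the Col15a1 UMIs of the high-burden class, and without the top cell of each gene 3 in place of 7 members were at least 2-fold higher.

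For the basement membrane chains the ratios were higher in cells without these markers. In endothelial cells with fewer than 3 fibroblast markers Col4a1 was 376 and 863 CPM (log2 interval 1.07 to 1.33), Col4a2 258 and 590 CPM (1.19, 1.03 to 1.35) and Col18a1 12.2 and 108 CPM (3.15, 2.55 to 3.80). In those with 3 or more, Col4a1 was 488 and 566 CPM (0.21, 0.04 to 0.39) and Col18a1 29.0 and 50.5 CPM (0.80, 0.12 to 1.48). Over 11 alternative settings, the subset with fewer markers and the aerocytes among them, the log2 ratio of Col18a1 lay between 1.07 and 3.15. Cells with 3 or more fibroblast markers (0.80) were not among these settings, and neither were blood vessel cells other than aerocytes.

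**Figure D4:**
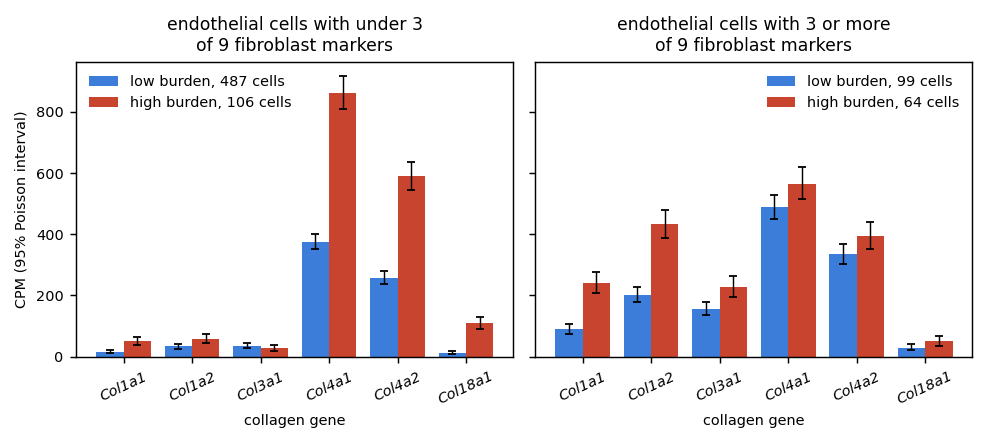
Levels of 6 collagen genes in endothelial cells of the low-burden (blue) and high-burden library (red), as CPM with 95% Poisson intervals, split by the number of 9 fibroblast markers seen in a cell. Fibrillar chains stand higher in cells with 3 or more markers (Col1a1 90.1 and 240 CPM) than in cells with fewer (14.8 and 50.3 CPM), and Col4a1 differs more between libraries in cells with fewer than 3 (376 and 863 CPM).

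The higher level of collagen IV was seen in blood vessel cells other than aerocytes. Capillary aerocytes, the large cells of the gas exchange surface marked by Car4 and Ednrb, had 478 CPM of Col4a1 at low and 412 CPM at high burden (log2 ratio −0.21, −0.43 to −0.01) and 327 and 359 CPM of Col4a2 (0.13, −0.10 to 0.36). The other blood vessel cells, marked by genes such as Gpihbp1, Plvap and Vwf and numbering 190 and 53, had 327 and 1174 CPM of Col4a1 (1.85, 1.65 to 2.04) and 230 and 753 CPM of Col4a2 (1.71, 1.47 to 1.95). Their Col18a1 was 12.4 and 150 CPM (3.59, 2.69 to 4.64), from 11 and 104 UMIs. With fewer than 3 fibroblast markers these cells still had 306 and 1149 CPM of Col4a1 (1.91, 1.69 to 2.13), and aerocytes 431 and 405 CPM (−0.09, −0.43 to 0.25). With 3 or more such markers, Col4a1 had a log2 ratio of −0.38 (−0.65 to −0.11) in aerocytes. In the other blood vessel cells with 3 or more, 14 and 8 cells, it was 1.55 (1.11 to 1.99). Capillary, venous and arterial cells were not separated, and a different make-up of this group in the libraries was not tested.

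Epithelial cells of the high-burden library had lower levels of basement membrane chains. Of 8 members past the filter, 3 were at least 2-fold lower, where 5.13% of all genes past the filter were lower, and 1 was at least 2-fold higher, where 1.5% were higher. The median log2 ratio of the 8 was −0.89, beside −0.14 over 5404 genes. The 3 were Col4a3, a chain of the alveolar basement membrane (44.2 and 19.0 CPM, −1.22, −1.99 to −0.51), Col4a5, its partner chain (27.2 and 11.8 CPM, −1.21, −2.22 to −0.30), and Col4a1 (71.3 and 35.3 CPM, −1.02, −1.57 to −0.49). The other collagen IV chains, Col4a4 (63.4 and 37.1 CPM, −0.77, −1.33 to −0.25) and Col4a2 (67.9 and 38.9 CPM, −0.81, −1.34 to −0.29), were lower by less than 2-fold, as were Col1a2 (28.3 and 14.5 CPM, −0.97, −1.88 to −0.13) and Col3a1 (23.2 and 13.6 CPM, −0.78, −1.74 to 0.11), with lymphocytes at 24.0 and 12.4 CPM of Col3a1. Thinned to 3000 UMIs per cell, 0 members past the filter were at least 2-fold lower, and Col4a1 had −0.69. Col4a3 and Col4a5 stayed at least 2-fold lower under each setting that gave them a value.

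Alveolar type 1 (AT1) cells, the flat cells that share their basement membrane with the capillaries, had the highest levels of these chains among the epithelial subclasses. The 34 low-burden AT1 cells had 673 CPM of Col4a4, 540 CPM of Col4a3, 547 CPM of Col4a2, 340 CPM of Col4a1 and 207 CPM of Col4a5. In the 102 low-burden alveolar type 2 (AT2) cells, which make surfactant, Col4a3 was 3.49 CPM and Col4a4 20.9 CPM, and in the 58 airway cells each was 1.80 CPM. Of the 126 Col4a1 UMIs of the low-burden class, AT1 cells held 46 and AT2 cells 44. Col4a3 and Col4a4 lie head to head on chromosome 1, with starts 72 bases apart in GENCODE M21, and AT1 cells had both.

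At high burden 9 AT1 cells remained, 10.0% of the class against 15.9% at low burden, which is under the minimum for subclasses. In them Col4a4 was 559 CPM (380 to 794), Col4a3 289 CPM (165 to 469) and Col4a5 126 CPM (50.8 to 260), with log2 ratios of −0.27 (−0.90 to 0.33) for Col4a4 and −0.90 (−1.78 to −0.11) for Col4a3. The share of AT1 cells in the class moved with the lower levels of the class, and its part in them was not tested. In AT2 cells the collagen sum was 276 and 292 CPM (0.08, −0.32 to 0.47), and Col4a1 was 76.7 and 38.2 CPM (−1.01, −2.11 to −0.03).

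The single member past the filter and at least 2-fold higher in epithelial cells was Col6a1, with 17.6 and 54.2 CPM in the low- and high-burden library (log2 ratio 1.63, 0.98 to 2.30). Lymphocytes of the same libraries had 5.15 and 49.4 CPM of Col6a1, so that after their level was subtracted epithelial Col6a1 was lower at high burden (−1.36). Col6a2, with 49 UMIs just short of the filter, had 7.36 and 32.5 CPM (2.14), and Col16a1, with 4 and 10 UMIs, 2.26 and 9.04 CPM (2.00, 0.20 to 4.12), both named after their values were seen. Most Col6a1 UMIs of the high-burden library, 86.4%, were in metastatic cells. The summed level of the 10 metastatic markers was 168 CPM in low-burden and 956 CPM in high-burden epithelial cells, and 30.9 and 321 CPM in lymphocytes.

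In metastatic cells collagen VI chains had the highest levels. Col6a1 stood at 353 CPM (347 to 360) and was seen in 97.9% of the 1446 cells, and Col6a2 at 175 CPM (171 to 180) in 90.2%. After thinning to 3000 UMIs, 61.3% (58.7 to 63.8) of metastatic cells had a Col6a1 UMI and 39.4% (36.9 to 42.0) a Col6a2 UMI. Col6a3, a further chain of collagen VI, was at 31.9 CPM (30.0 to 33.8). Col6a1 was 2.01 times Col6a2 in UMIs, as against 1.31 times in the fibroblasts of the same library.

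The other members of the highest level in metastatic cells were Col18a1 (84.0 CPM, 81.0 to 87.2), Col16a1, a fibril-associated chain (50.2 CPM, 47.8 to 52.6), Col11a1 (47.6 CPM, 45.3 to 49.9), Col5a1 (30.5 CPM, 28.7 to 32.5), Col4a5 (29.3 CPM, 27.5 to 31.2), Col27a1, a fibrillar chain (28.4 CPM, 26.6 to 30.2) and Col3a1 (24.7 CPM, 23.1 to 26.5). In the lymphocytes of the same library Col6a1 was 49.4 CPM (16 UMIs), Col6a2 18.5 CPM (6 UMIs), Col18a1 9.27 CPM (3 UMIs) and Col11a1 3.09 CPM (1 UMI). Col16a1, Col4a5 and Col27a1 had no UMI there. With the limit of 3 counts put in for the lymphocytes, Col16a1 was 5.42-fold higher in metastatic cells, Col4a5 3.17-fold and Col27a1 3.06-fold. Intervals from the counts as observed had lower ends of 4.40-fold, 2.57-fold and 2.49-fold, in the same order. Of 16 members past the filter, 12 were at least 2-fold higher in metastatic cells than in lymphocytes, where 25.2% of all genes were. The 1 member at least 2-fold lower was Col4a2 (log2 ratio −1.32, −2.46 to 0.14), where 10.7% of all genes were lower. Metastatic cells held 34086267 UMIs and lymphocytes 323773, so the filter was passed mainly through metastatic cells. The count of 12 is therefore a description and not support for a difference. Among the 12, the intervals of Col3a1, Col12a1 and Col1a2 included a ratio of 1, with 1 to 4 UMIs each in lymphocytes.

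Against the fibroblasts of the same library, 2 of 21 members past the filter were at least 2-fold higher in metastatic cells, where 20.1% of all genes were, and 14 at least 2-fold lower, where 15% were. The 2 were Col11a1, with 47.6 CPM against 6.99 CPM (3 UMIs, log2 ratio 2.77, 1.22 to 5.04), and Col18a1, with 84.0 against 30.3 CPM (13 UMIs, 1.47, 0.69 to 2.38). Metastatic cells held 34086267 UMIs and these fibroblasts 429003, and the 2 members passed the filter only through metastatic cells. The count of 2 is therefore a description and not support for a difference. The next ratios were those of Col16a1 (0.62, −0.13 to 1.5), Col27a1 (0.02, −0.79 to 0.98) and Col4a5 (−0.35, −1.05 to 0.47). Col6a1 was 353 against 469 CPM (−0.41, −0.61 to −0.20). Of the UMIs of the high-burden library, metastatic cells held 94.9% for Col11a1, 89.1% for Col16a1 and 84.8% for Col18a1.

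The chains of collagen I and III and the common chains of collagen IV had low levels in metastatic cells. Col1a1 was at 10.3 CPM (9.22 to 11.4) against 6.18 CPM in lymphocytes and 1387 CPM in fibroblasts, and Col3a1 at 24.7 against 12.4 and 2606 CPM. One cell held 14.6% of the Col1a1 and 16.1% of the Col3a1 UMIs of the 1446 cells. Col4a1 was at 8.13 CPM (7.20 to 9.14) and Col4a2 at 7.42 CPM (6.54 to 8.40), against 6.18 and 18.5 CPM in lymphocytes, while Col4a5 stood at 29.3 CPM and made 98.7% of the UMIs of Col4a5 and its neighbour and partner Col4a6.

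**Figure D5:**
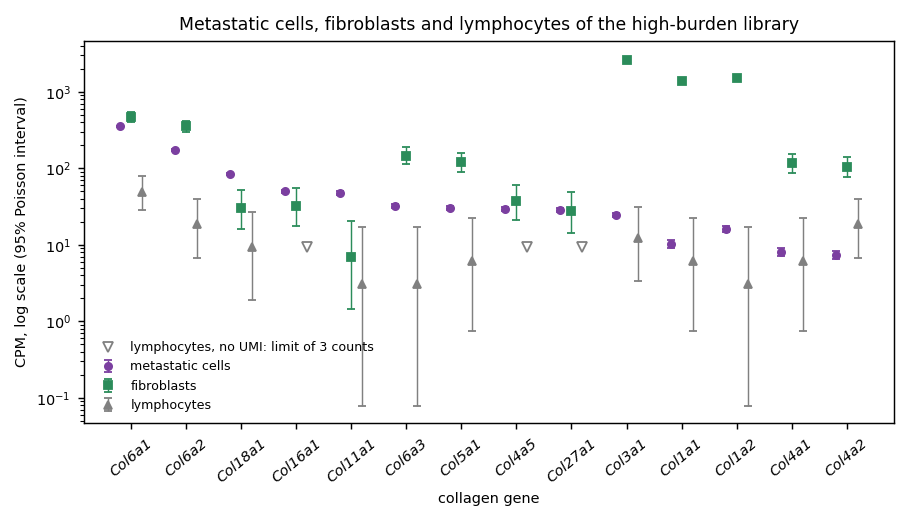
Levels of collagen genes in metastatic cells (circles), fibroblasts (squares) and lymphocytes (triangles) of the high-burden library, as CPM on a log axis with 95% Poisson intervals, where an open triangle stands for no UMI at the limit of 3 counts. The 10 members of the highest level in metastatic cells come first, and Col18a1 and Col11a1 stand above the fibroblasts while Col1a1, Col1a2 and Col3a1 stand below them.

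The share of cells with any collagen UMI was counted after thinning. These shares were not corrected for the background level seen in lymphocytes, and the share of lymphocytes is not given beside them. At 3000 UMIs it was 100% of fibroblasts in both libraries, 98.6% and 100% of smooth muscle cells or pericytes, 89.1% (85.8 to 91.9) and 94.1% (89.4 to 97.1) of endothelial cells, and 58.8% (51.5 to 65.8) and 64.4% (53.7 to 74.3) of epithelial cells. In metastatic cells it was 89.0% (87.3 to 90.6). At 3000 UMIs 155 low-burden endothelial cells and 80 low-burden fibroblasts were too shallow and were left out. At 2000 UMIs the epithelial order turned, with 50.9% at low and 42.2% at high burden.

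Genes that act on collagens were followed as 3 lists of 31 enzymes, chaperones and fibril-forming proteases, 11 receptors and 5 collagen-binding matrix proteins. In smooth muscle cells or pericytes 5 of 8 listed enzymes and chaperones past the filter were at least 2-fold higher and 0 lower, where 12.4% of all genes were higher and 17.5% lower, with a median log2 ratio of 1.67. The highest were Adamts2, which trims procollagen (26.8 and 189 CPM, 2.82, 1.85 to 3.92), the cross-linking enzyme Loxl2 (43.8 and 222 CPM, 2.34, 1.55 to 3.20) and the trimming enhancer Pcolce (68.1 and 328 CPM, 2.27, 1.63 to 2.95). The lowest were Loxl1 (−0.37, −1.03 to 0.25), P3h3 (−0.17, −1.03 to 0.65) and Ppib (0.85, 0.50 to 1.21).

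In fibroblasts 0 of 24 such genes passed 2-fold in either direction, in endothelial cells 1 of 24 was higher, Fkbp10, a collagen chaperone (16.1 and 40.6 CPM, log2 ratio 1.34, 0.83 to 1.85), and in epithelial cells 1 of 10 was lower, Pcolce2 (−1.26, −1.93 to −0.63). P4hb, the shared subunit of prolyl 4-hydroxylase and a general folding enzyme, was near 2-fold higher in fibroblasts (162 and 322 CPM, 0.99, 0.69 to 1.27), endothelial cells (0.88, 0.71 to 1.04) and epithelial cells (1.00, 0.75 to 1.25). Of the receptors, 0 of 4 in fibroblasts, 0 of 1 in smooth muscle cells or pericytes, 0 of 5 in endothelial cells and 0 of 3 in epithelial cells passed 2-fold. Of the binding proteins, Dcn, which coats collagen I fibrils, was lower in fibroblasts (7521 and 3119 CPM, −1.27, −1.35 to −1.19) and in endothelial cells (68.8 and 20.6 CPM, −1.74, −2.26 to −1.26), and Bgn, which also binds collagen I, in epithelial cells (84.9 and 38.0 CPM, −1.16, −1.69 to −0.66). Dcn is also among the markers that chose the fibroblasts and their adventitial subclass. Sparc, a collagen-binding glycoprotein, was higher in smooth muscle cells or pericytes (1737 and 4349 CPM, 1.32, 1.19 to 1.46).

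In metastatic cells 17 of 24 listed enzymes and chaperones past the filter were at least 2-fold higher than in lymphocytes and 0 lower, where 25.2% of all genes were higher and 10.7% lower. Here too the filter was passed mainly through metastatic cells, which held far more UMIs than the lymphocytes. Against fibroblasts 2 of 27 were at least 2-fold higher and 11 at least 2-fold lower, where 20.1% of all genes were higher and 15% lower. The 2 higher were Ctage5, which exports procollagen (45.6 against 21.0 CPM, log2 ratio 1.12, 0.19 to 2.25), and P3h2, a prolyl hydroxylase with 1 UMI in the fibroblasts (1.62, −0.87 to 6.93). P3h2 passed the filter through metastatic cells, which held far more UMIs than the fibroblasts too, so this count is a description. Against fibroblasts the lowest were Loxl1 (6.98 against 452 CPM, log2 ratio −6.02, −6.30 to −5.74), Adamts2 (2.90 against 168 CPM, −5.85, −6.31 to −5.39) and Fkbp10 (1.23 against 62.9 CPM, −5.67, −6.41 to −4.92). All 5 binding proteins were at least 2-fold lower than in fibroblasts, from Lum (0.968 against 375 CPM) to Sparc (1047 against 4261 CPM).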

How the data were processed

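The authors sequenced single cells of 1 low-burden and 1 high-burden lung on the 10x Genomics platform. The authors used Cell Ranger 2.0.2 with mm10 and an added PYMT sequence, and the deposited values are raw UMI counts per gene and cell. Strand handling, chemistry and annotation release were not given in the sources used here. Cells with 1000 to 7000 genes and at most 10% mitochondrial UMIs were kept. Each class score was the mean over its markers of log1p counts per 10000, each marker capped at and divided by its 90th percentile among cells with it. A cell needed a score of 0.2, 1.5 times the next class, and 3 markers seen. Of the listed markers, 3 were not found in the files. Members and lists were chosen with earlier results of these data known. UMIs were summed per class and scaled to CPM, with 95% Poisson, conditional binomial and Clopper-Pearson intervals, and a limit of 3 counts where a sum was 0. No test was run. Members with 50 UMIs and detection in 10% of cells are named. Where over 10 qualified, the 5 highest levels and the 5 highest and 5 lowest ratios are named, and for metastatic cells the 10 highest levels and 5 highest ratios to fibroblasts. Pathway genes named are among the 3 highest or 3 lowest ratios of their list. Scrublet (scanpy 1.11.5) marked 9 and 7 cells, 0.291% of 5506, and has therefore not worked here. Doublets were kept, since the methods state no removal. Counts were processed with numpy 2.4.6, scipy 1.17.1 and pandas 2.3.3, and the ratio and its interval were tested on simulated Poisson counts. Those counts hold no spread between cells, so the simulation checks the calculation and not how well the intervals cover real cells. Alternatives covered scaling, gates, filters, thinning, free RNA, single cells and subclasses. Leaving out cells with 3 or more fibroblast markers, and keeping 1 subclass, were chosen after seeing the data. Protein sequences were not used here.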

Additional observations from a re-analysis of the deposited data

Results flagged for a closer look

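Col4a1 differed in opposite directions in classes of the same lungs. Its log2 ratio of the high-burden over the low-burden library was 1.89 in smooth muscle cells or pericytes and −1.02 in epithelial cells. With 1 library per group the difference between these ratios was not tested. Thinned to 3000 UMIs per cell, the epithelial ratio was −0.69, under 2-fold. The ratio in smooth muscle cells or pericytes rests on 17 high-burden cells, of which 1 held 28.3% of the Col4a1 UMIs.

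Cells outside the 5 classes compared also had collagen above the lymphocytes, whose sums were 154 and 151 CPM in the low- and high-burden library. Mesothelial cells, which line the lung surface, had a summed collagen level of 4951 CPM in 21 low-burden cells and 5434 CPM in 36 high-burden cells. Cells that reached no class had 1395 and 2090 CPM in the same order. Myeloid cells of the high-burden library had 220 CPM.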

How the results depend on the processing

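No paired analysis was possible because each group had 1 library and no test was run. Of 515 log2 ratios of single members under 11 settings, 425 moved by no more than their counting interval, 88 moved further and 2 reversed. The 425 include settings that could move little. Leaving out the few cells marked by Scrublet left 53 of 53 ratios the same, as did no filter on cells. With cells of 1 subclass, 18 of 35 moved further. The ones that reversed were Col1a2 in endothelial cells under a stricter gate (−0.12) and Col6a1 in epithelial cells after the lymphocyte level was subtracted (−1.36). The cause of a move was not tested.

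The log2 ratio of the collagen sum in fibroblasts was −0.19 with median-of-ratios scaling, −0.30 as a mean of cells, −0.70 under a stricter and −0.17 under a looser gate, −0.31 thinned to 3000 UMIs, −0.23 without the top cell, −0.17 without the gene of most UMIs and −0.37 in alveolar fibroblasts alone. In smooth muscle cells or pericytes it was 1.13 with median-of-ratios scaling, 1.57 under a stricter gate and 1.36 thinned. In endothelial cells it was 0.77 under a looser gate, 1.01 with the lymphocyte level subtracted, 0.73 thinned, 0.77 without the top cell and 1.17 without cells holding 3 or more fibroblast markers. In epithelial cells it was −0.70 as a mean of cells, −0.71 with the lymphocyte level subtracted, −0.14 thinned, −0.77 without cells holding 3 or more fibroblast markers and 0.082 in AT2 cells alone. The metastatic sum was 1023 CPM as a mean of cells, 954 CPM with no filter on cells, 927 CPM under a stricter and 957 CPM under a looser gate, 790 CPM with the lymphocyte level subtracted, 1012 CPM thinned and 589 CPM without Col6a1.

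Counts of members past 2-fold moved by over 1.5 times as follows. Under a stricter gate 2 were lower in fibroblasts and 4 higher in endothelial cells. Under a looser gate 4 were higher in endothelial and 2 in epithelial cells. With the lymphocyte level subtracted 0 were higher in epithelial cells. Thinned, 4 members past the filter were higher in smooth muscle cells or pericytes, and 0 were higher and 0 lower in epithelial cells. Without the top cell 2 were lower in fibroblasts and 3 higher in endothelial cells. With no filter on low counts 7 were higher and 3 lower in fibroblasts, 17 and 1 in smooth muscle cells or pericytes, 14 and 5 in endothelial cells, and 6 and 6 in epithelial cells. At 1.5-fold 1 was higher and 3 lower in fibroblasts, 11 higher in endothelial and 7 lower in epithelial cells. In 1 subclass alone 5 were higher in smooth muscle cells, and 0 higher and 1 lower in AT2 cells. At 2000 UMIs the share of cells with a collagen UMI was 75.8% and 89.4% of low- and high-burden endothelial cells, 50.9% and 42.2% of epithelial cells and 80.6% of metastatic cells.

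Few cells stand behind the values of the 17 smooth muscle cells or pericytes, the 18 adventitial fibroblasts and the 9 AT1 cells of the high-burden library, and intervals there cover counting error and not the spread between cells or mice.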

Other observations

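In mesothelial cells Col3a1 stood at 1780 CPM in the low-burden library and 2294 CPM in the high-burden library, Col1a2 at 696 and 1151 CPM, and Col1a1 at 856 and 438 CPM. A single cell held 18.1% of the collagen UMIs of the 21 low-burden mesothelial cells and 7.74% of those of the 36 high-burden ones.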
